A study of Mus musculus with 6 samples.

Results

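Iron that enters a liver cell is used in part inside mitochondria, where it is built with sulfur into iron-sulfur clusters and into heme. The 8 genes described here encode part of the machinery of cluster assembly and both carriers that bring iron across the inner mitochondrial membrane. They are Nfs1, Lyrm4, Iscu, Glrx5, Isca1, Isca2, Slc25a37 and Slc25a28, chosen by name for their function, at a time when earlier results of these data were known. All 8 had exactly 1 entry among the 45777 genes of the deposited liver RNA-seq table. The question was whether their transcripts differed between livers of mice with and without ferroportin in hepatocytes, the only known exporter of iron from cells. None of the 8 passed the test for a difference between the genotypes over the spread between mice, and the 95% intervals of all 8 fold changes lay between 0.664 and 1.497 times the littermate level.

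Livers of 6 male mice on a C57BL/6 background were sequenced, 3 littermate controls (LT) and 3 mice with hepatocyte-specific deletion of ferroportin (Fpn-LKO), with 1 library per mouse. Both groups carried 2 floxed alleles of Slc40a1, the ferroportin gene (Fpn flox/flox), and both were fed a high-fat diet (HFD), in which most of the energy comes from fat. The Fpn-LKO mice also carried Alb-Cre, a Cre recombinase driven by the albumin promoter, which is active in hepatocytes, so that the other liver cells keep the gene. The floxed allele was of 129S origin and the line had been backcrossed to C57BL/6J, details that come from the methods section. The labels give no age, the methods give one only for the start of the diet, and how long these livers had been on the HFD is not given in the sources used here. The labels put all of them in 1 batch.

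Total counts lay between 43086184 and 47778683 per library. Slc40a1 was examined first, because it checks the labels. It had 154, 180 and 126 CPM (reads scaled to the depth of the library, after TMM normalization) in LT replicates 1 to 3, against 143, 143 and 176 CPM in replicates 1 to 3 under the Fpn-LKO label. The groups overlapped (log2 fold change 0.0073, standard error, SE, 0.16). Its p, as all p-values called edgeR adjusted below, came from a quasi-likelihood fit and was adjusted by the Benjamini-Hochberg method over every gene tested (edgeR adjusted p = 0.995). The deposited value is 1 count over the whole gene, which does not separate the floxed part from the rest. By this count, transcripts of the targeted gene were not fewer under the Fpn-LKO label, and the directions below rest on the labels alone. The paper reports loss of ferroportin in hepatocytes of this line, from isolated hepatocytes and liver staining. It also reports more liver iron and ferritin protein in Fpn-LKO mice on the HFD. Whether the sequenced livers were among those examined is not given in the sources used here. The summed CPM of 8 hepatocyte markers was 55953 to 69761 in LT and 58195 to 66496 in the libraries labelled Fpn-LKO, so the labelled tissue had its markers in every library. In whole liver, fewer cells of a type and less RNA per cell cannot be told apart.

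Cluster assembly begins with NFS1, a cysteine desulfurase that takes sulfur from cysteine, held stable by the small partner protein LYRM4. The sulfur meets iron on the scaffold protein ISCU, where the first cluster forms. GLRX5, a glutaredoxin, takes the cluster from the scaffold and passes it on, and ISCA1 and ISCA2 act later, in building the larger clusters that proteins such as mitochondrial aconitase need. The iron itself comes in through the mitoferrins, SLC25A37 (mitoferrin-1), best known from red cell precursors, and SLC25A28 (mitoferrin-2), which is expressed more widely. Loss of several of these proteins in people or animals is known to disturb both clusters and the cell's sensing of iron.

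All 8 genes passed the filter on low counts, with 220 to 3159 reads per gene and library. The log2 fold change of the libraries labelled Fpn-LKO over LT was positive for 5 genes and negative for 3, with a median of 0.033, against -0.0040 over all 17274 genes tested. In the quasi-likelihood fit of edgeR, 0 of the 8 passed an adjusted p of 0.05, a threshold that 0.0232% of all genes passed, and their adjusted p-values lay between 0.982 and 0.995. At an unadjusted p under 0.05 the count was also 0 of 8, against 4.8% of all genes. DESeq2's Wald test called 0 of the 8 and 0.417% of all genes, and edgeR's exactTest called 0 of the 8 and 0.365% of all genes. The 3 values of one genotype lay outside those of the other for 2 of the 8 genes, Glrx5 and Isca1, against 10.6% of all genes.

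**Figure D1:**
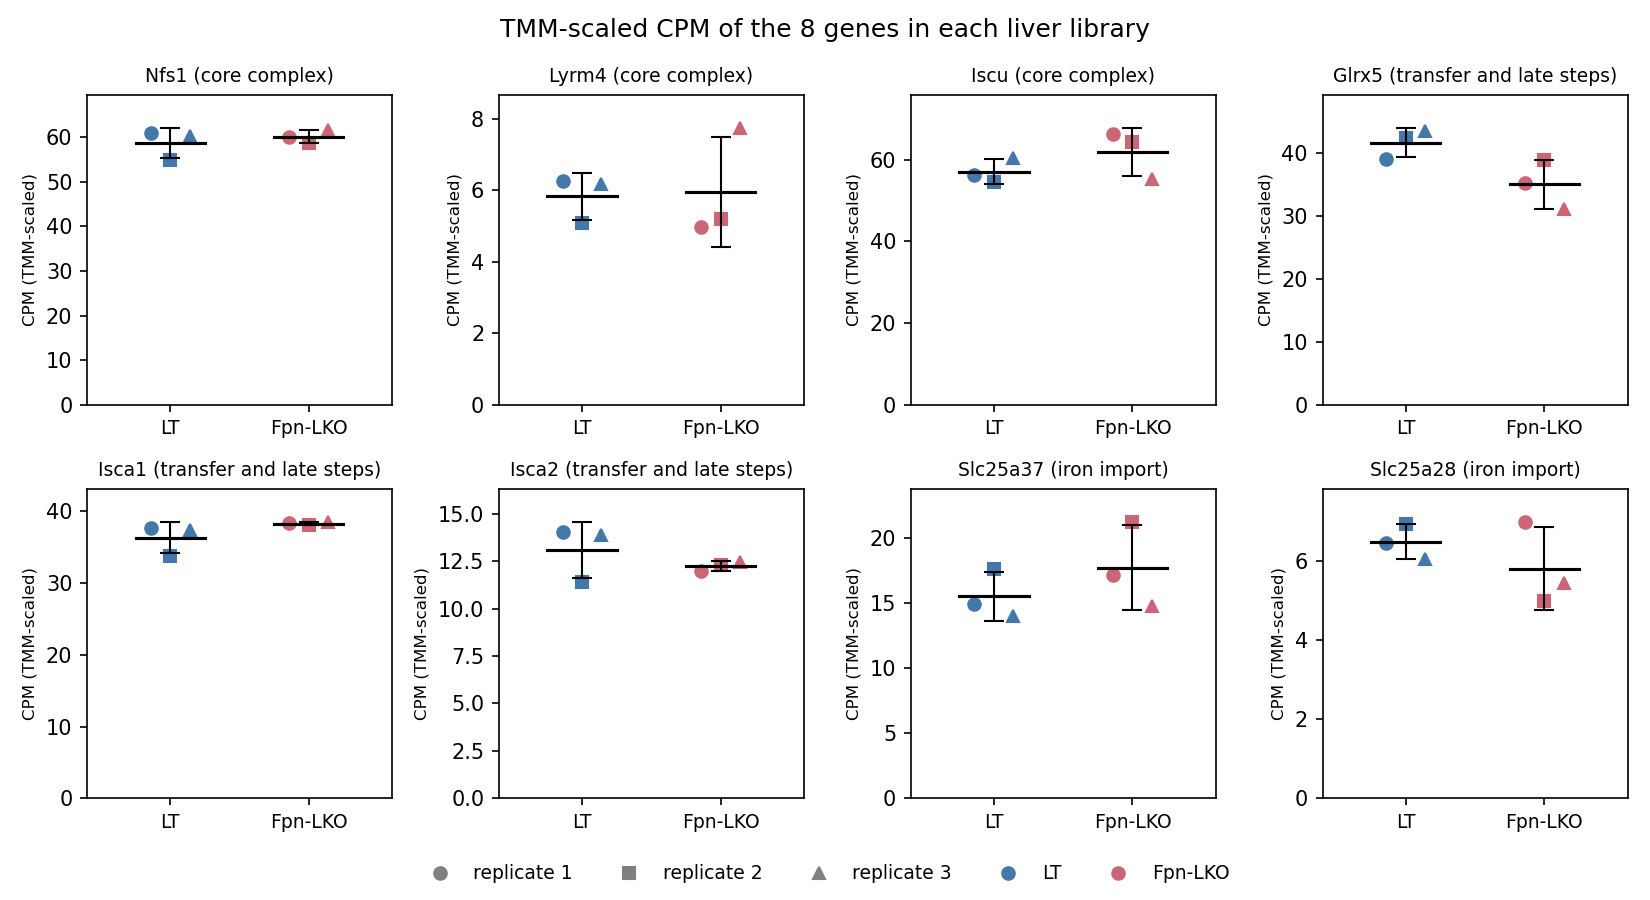
Values of the 8 genes in each library. Each panel gives TMM-scaled CPM from 0 upward, with a point per mouse, the mean as a horizontal line and the SD as error bars (3 mice a group). LT and Fpn-LKO points lie in the same range for all genes except Glrx5, where the 3 Fpn-LKO points (31.0 to 38.8 CPM) lie below the 3 LT points (39.1 to 43.5 CPM), and Isca1, where they lie just above.

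Nfs1, on chromosome 2 of GRCm38 (156123637 to 156144202, minus strand), had 61.0, 55.0 and 60.2 CPM in the LT livers, against 60.0, 58.8 and 61.7 CPM under the Fpn-LKO label. The lowest value was that of LT replicate 2, the highest belonged to Fpn-LKO replicate 3, and the other 4 libraries lay within this span. Means were 58.7 ± 3.29 and 60.1 ± 1.46 CPM (SD, n = 3 each). The log2 fold change was 0.03 (SE 0.097, edgeR adjusted p = 0.995), with a 95% interval of the fold change from 0.875 to 1.20. Nfs1 shares 50 bases with Romo1 (at most 987 reads) on the opposite strand.

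Lyrm4, on chromosome 13 (35978797 to 36117357, minus strand), was the most thinly covered gene of the core complex, with 220 to 359 reads per library. It had 6.25, 5.08 and 6.16 CPM in the LT livers, against 4.97, 5.18 and 7.74 CPM under the Fpn-LKO label. Fpn-LKO replicate 3 held the highest value and replicate 1 of the same genotype the lowest, so the groups overlapped fully. This gave a log2 fold change of 0.03 (SE 0.22, edgeR adjusted p = 0.995), and the interval of the fold change ran from 0.713 to 1.47. The direction depended on single mice, since the log2 fold change was -0.20 without Fpn-LKO replicate 3 and -0.053 without LT replicate 2.

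Iscu lies on chromosome 5 (113772418 to 113778288, plus strand). It had 56.3, 54.6 and 60.5 CPM in the LT livers, against 66.2, 64.3 and 55.3 CPM under the Fpn-LKO label. Fpn-LKO replicates 1 and 2 were the highest of the 6 libraries, but replicate 3 lay among the LT values. Means were 57.1 ± 3.02 and 61.9 ± 5.82 CPM (SD, n = 3 each). The log2 fold change was 0.12 (SE 0.11, edgeR adjusted p = 0.990), with an interval of the fold change from 0.905 to 1.30. In the deposited TPM, which also divides by transcript length, the means were 77.5 ± 5.75 and 78.0 ± 10.7 (SD, n = 3 each). A limma fit on log2(TPM + 1) gave a log2 difference of 0.0025 (adjusted p = 0.9996), where the median over all genes was 0.083.

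Glrx5, on chromosome 12 (105032618 to 105040911, plus strand), had the smallest p-value of the 8. It had 39.1, 42.3 and 43.5 CPM in the LT livers, against 35.2, 38.8 and 31.0 CPM under the Fpn-LKO label. All 3 Fpn-LKO values lay below all 3 LT values, by a margin of less than 1 CPM between LT replicate 1 and Fpn-LKO replicate 2. Means were 41.6 ± 2.28 and 35.0 ± 3.91 CPM (SD, n = 3 each). The corresponding log2 fold change was -0.25 (SE 0.12, edgeR adjusted p = 0.982, unadjusted p = 0.0701), and the interval of the fold change, 0.694 to 1.02, includes no difference. On deposited FPKM the groups stayed apart. On deposited TPM they overlapped, because Fpn-LKO replicate 2 had the highest Glrx5 TPM of all 6 libraries at 58.0. The same library also had the highest TPM for Nfs1, Iscu, Isca1 and Slc25a37, but not for Lyrm4, Isca2 and Slc25a28. Without that library the unadjusted edgeR p was 0.0420 and the log2 fold change -0.33 (edgeR adjusted p = 0.999). With any other mouse left out, the unadjusted edgeR p lay between 0.0711 and 0.203. The log2 fold change then lay between -0.29 and -0.17.

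Isca1, on chromosome 13 (59755415 to 59769789, minus strand), had 37.7, 33.8 and 37.4 CPM in the LT livers, against 38.3, 38.1 and 38.5 CPM under the Fpn-LKO label. The 3 Fpn-LKO values lay within 0.5 CPM of each other and just above the highest LT value. Means were 36.3 ± 2.16 and 38.3 ± 0.226 CPM (SD, n = 3 each). Isca1 had a log2 fold change of 0.08 (SE 0.098, edgeR adjusted p = 0.995) and an interval of the fold change from 0.90 to 1.24. The groups of Isca1 were apart with TMM and RLE scaling and overlapped with upper-quartile scaling, total counts, FPKM and TPM.

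Isca2, the partner of Isca1, lies on chromosome 12 (84773230 to 84775089, plus strand). It had 14.02, 11.4 and 13.8 CPM in the LT livers, against 11.95, 12.3 and 12.5 CPM under the Fpn-LKO label. The Fpn-LKO values fell between the LT values, of which replicate 2 was the lowest of all 6. Isca2 had a log2 fold change of -0.10 (SE 0.13, edgeR adjusted p = 0.995), with an interval of the fold change from 0.756 to 1.16. On log2(TPM + 1) the difference was 0.0014, where the median over all genes was 0.083, against -0.0040 in the main fit.

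Slc25a37, on chromosome 14 (69241848 to 69285544, minus strand), encodes mitoferrin-1. It had 14.9, 17.6 and 13.97 CPM in the LT livers, against 17.1, 21.2 and 14.8 CPM under the Fpn-LKO label. Fpn-LKO replicate 2 stood highest, and the remaining libraries of both genotypes shared one range. Means were 15.5 ± 1.89 and 17.7 ± 3.25 CPM (SD, n = 3 each). The log2 fold change was 0.19 (SE 0.17, edgeR adjusted p = 0.985), with an interval of the fold change from 0.872 to 1.497. Without Fpn-LKO replicate 2 it was 0.043 (edgeR adjusted p = 0.999).

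Slc25a28, on chromosome 19 (43663801 to 43675006, minus strand), encodes mitoferrin-2. It had 6.47, 6.95 and 6.07 CPM in the LT livers, against 7.002, 5.01 and 5.45 CPM under the Fpn-LKO label. Replicate 1 of Fpn-LKO was the highest library and the other 2 of that genotype were the lowest. Between the groups the log2 fold change was -0.16 (SE 0.19, edgeR adjusted p = 0.995), with an interval of the fold change from 0.664 to 1.21. It was -0.31 without Fpn-LKO replicate 1 and -0.060 without Fpn-LKO replicate 2.

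**Figure D2:**
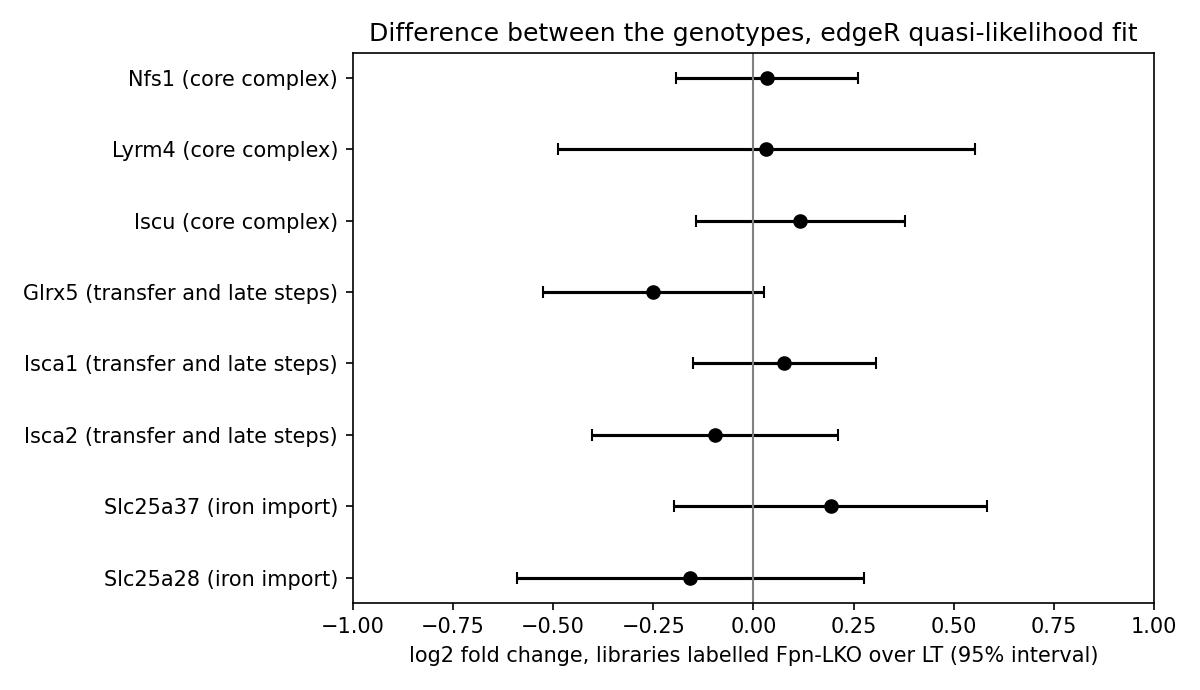
Difference between the genotypes for the 8 genes, ordered by their role. Points are log2 fold changes of the libraries labelled Fpn-LKO over LT and bars are 95% intervals from the edgeR fit. All 8 intervals cross 0, and that of Glrx5, with a log2 fold change of -0.25, extends least beyond it.

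The 8 genes differed far more from each other than between the genotypes. Per transcript length, in deposited TPM averaged over the 6 libraries, Iscu had the highest level at 77.8, followed by Glrx5 at 49.99, Nfs1 at 38.0, Isca1 at 25.6 and Isca2 at 19.1. Slc25a28, Slc25a37 and Lyrm4 were the lowest, at 5.14, 5.12 and 5.09 TPM. Each step in this order from Iscu down to Slc25a28 held within every one of the 6 libraries, although the ranges over libraries of Glrx5 and Nfs1, and of Isca1 and Isca2, overlapped. The last 3 genes could not be ordered, since Slc25a28 exceeded Slc25a37 in 4 of 6 libraries and Slc25a37 exceeded Lyrm4 in 3 of 6. NFS1 and LYRM4 work as partners, yet the TPM of Nfs1 was 5.89 to 8.93 times that of Lyrm4 within a library.

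**Figure D3:**
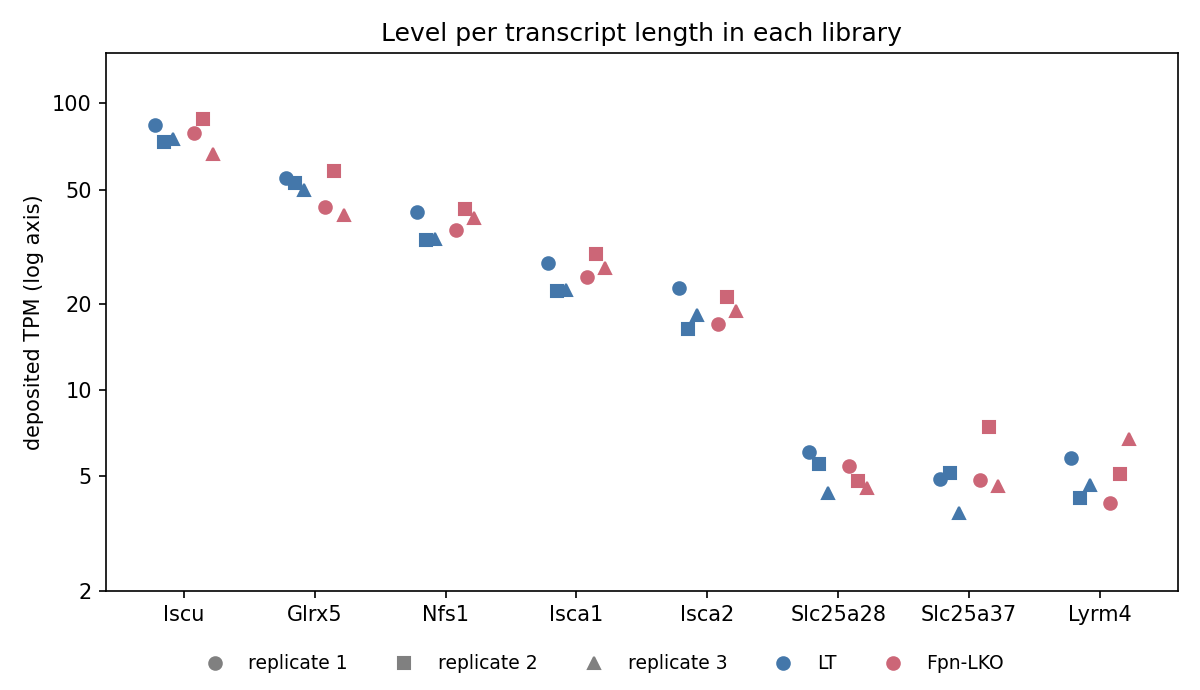
Deposited TPM of the 8 genes, from the highest mean to the lowest, on a logarithmic axis. Each point is 1 library, with LT to the left and Fpn-LKO to the right within a gene. Iscu lies at 66.8 to 88.2 TPM, and Slc25a28, Slc25a37 and Lyrm4 share a range of 3.71 to 7.46 TPM.

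Ratios within a library need no scaling between libraries. For the mitoferrins, Slc25a37 had 2.31, 2.53 and 2.303 reads per read of Slc25a28 in LT, and 2.45, 4.24 and 2.72 in the libraries labelled Fpn-LKO. Only Fpn-LKO replicate 2 stood clear of the rest, and the groups overlapped. The log2 ratio was higher by 0.35 in the Fpn-LKO group (exact two-sided permutation test over the 6 libraries, p = 0.2, adjusted over 4 ratios 0.4), and by 0.12 without Fpn-LKO replicate 2 (exact p = 0.3). The other 3 ratios were chosen after the values had been seen. Isca1 had 2.69, 2.97 and 2.70 reads per read of Isca2 in LT and 3.21, 3.09 and 3.09 in the libraries labelled Fpn-LKO, without overlap (log2 difference 0.17). The exact two-sided permutation p = 0.1 is the smallest that 3 against 3 mice allow, and after adjustment over the 4 ratios it was 0.4. The ratios of Iscu to Nfs1 (log2 difference 0.078, exact p = 0.6, and -0.13 on TPM) and of Nfs1 to Lyrm4 (0.027, exact p = 0.9) overlapped.

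Mitoferrin-1 is abundant in red cell precursors, and markers of these cells varied between the livers. The summed CPM of 9 erythroid markers was 407, 943 and 351 in LT and 1007, 1244 and 474 in the libraries labelled Fpn-LKO, so both genotypes held livers with low and with high sums. Slc25a37 had 13.97 to 14.9 CPM in the 3 libraries with low sums (LT replicates 1 and 3, Fpn-LKO replicate 3) and 17.1 to 21.2 CPM in the 3 with high sums (LT replicate 2, Fpn-LKO replicates 1 and 2). The part of these cells in the level of Slc25a37 was not tested. Of 10 markers listed, 9 were in the table and 5 were tested, Hba-a1, Hba-a2, Hbb-bs, Hbb-bt and Alas2, and all 5 had a positive log2 fold change with no adjusted p under 0.05. Rhag had no read in any library, and the membrane protein genes Slc4a1 and Epb42 had at most 48 reads. Alas2, the erythroid form of the first enzyme of heme synthesis, had 59.1, 67.4 and 97.3 CPM in the LT livers, against 99.2, 119 and 92.8 CPM under the Fpn-LKO label (log2 fold change 0.47, edgeR adjusted p = 0.982).

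**Figure D4:**
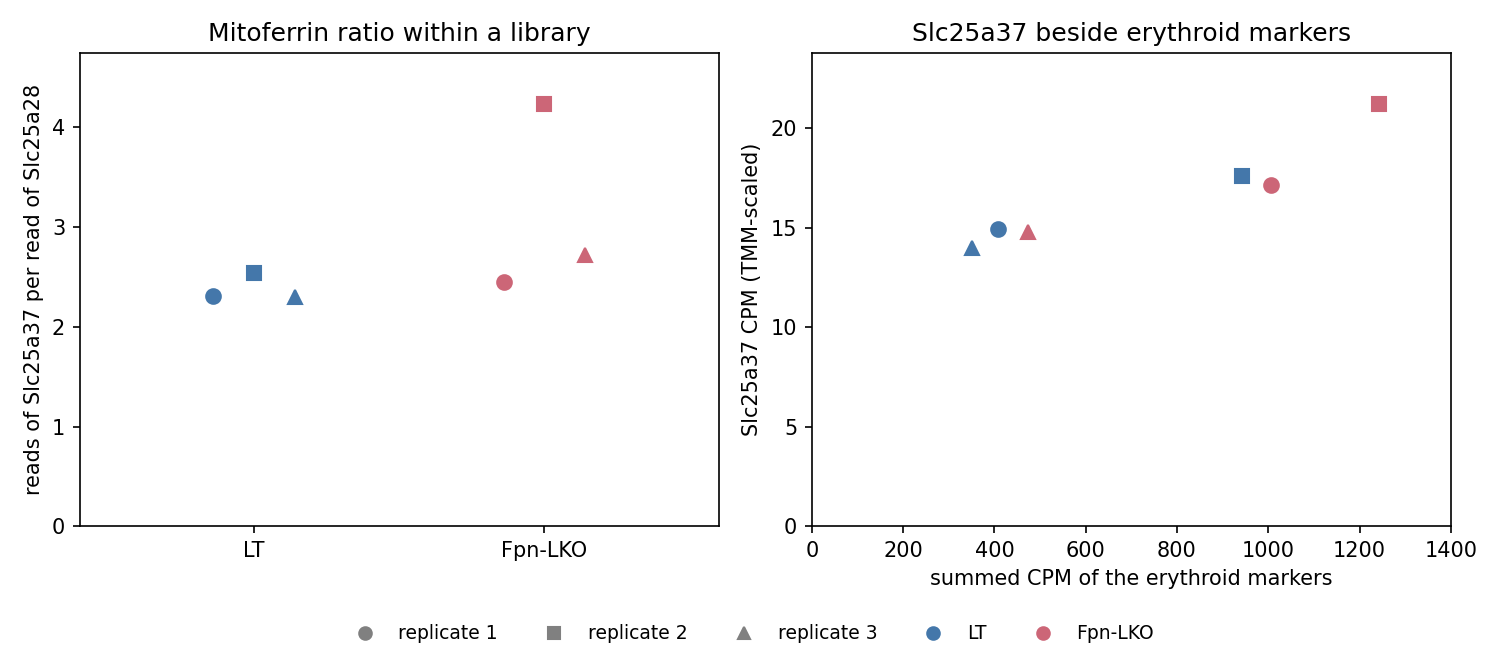
The mitoferrin genes in each library. On the left, reads of Slc25a37 per read of Slc25a28 by genotype, with Fpn-LKO replicate 2 at 4.24 and the other 5 libraries at 2.303 to 2.72. On the right, Slc25a37 in TMM-scaled CPM against the summed CPM of the erythroid markers, where 3 libraries lie at sums of 351 to 474 and 3 at 943 to 1244.

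The deposited table gives both read counts and FPKM, which divides reads by transcript length, and their quotient tracks the mean length of the transcripts to which the reads of a gene were assigned. This measure was taken up after the values had been seen. For Iscu it separated the genotypes. Calibrated on 1870 genes with a single RefSeq transcript, the implied mean length of Iscu transcripts was 944, 933 and 929 bases in LT and 1039, 1094 and 1097 bases in the libraries labelled Fpn-LKO. The 3 LT livers lay close together and well below all 3 Fpn-LKO livers. Means were 935 ± 7.74 and 1077 ± 32.6 bases (SD, n = 3 each), a difference of 142 bases. On the log2 scale reads per FPKM were 0.21 higher in the Fpn-LKO group, 1.15-fold, with an exact two-sided permutation p = 0.1, the smallest possible. Groups that did not overlap on this measure made up 6.77% of the 8395 genes that held 200 reads or more in each library. A gap as wide as that of Iscu, 0.14 on the log2 scale, was found in 8 of the 8395, Iscu included. The 8395 include the 1870 calibration genes, whose single RefSeq transcript leaves no room for a shift with transcript use. The share among genes with several transcripts was not computed. On the log2 scale, with each library centred on its median gene, Iscu was the only one of the 8 genes without overlap. The other 7 differed between group means by at most 0.023 on this scale, the value of Slc25a28. LT replicate 1 of Slc25a28 stood at 1501 bases, against 1557 to 1594 in the other 5 libraries. In calibrated bases Nfs1 did not overlap either, at 2059.6 to 2060.9 in LT and 2056.2 to 2058.0 in the libraries labelled Fpn-LKO. Lyrm4, Glrx5 and Isca1 have 1 RefSeq transcript each, so for them the measure could not shift with transcript use.

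Iscu is annotated with 7 GENCODE transcripts of 388 to 1395 bases and 4 RefSeq transcripts. To show where coding transcripts of unlike length part, the sequence around the point at which Iscu-201 (957 bases, 5 exons, 504 coding bases) and Iscu-202 (1395 bases, 4 exons, 627 coding bases) diverge is printed from the GENCODE M21 transcripts of GRCm38, plus strand, with the shared bases in lower case (chr5:113776820-113776849) and the bases that follow in capitals. Iscu-201 continues in its next exon (chr5:113777833-113777862), whereas Iscu-202 reads on without a splice (chr5:113776850-113776879).
Iscu-201: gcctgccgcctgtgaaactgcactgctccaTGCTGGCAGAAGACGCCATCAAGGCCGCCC
Iscu-202: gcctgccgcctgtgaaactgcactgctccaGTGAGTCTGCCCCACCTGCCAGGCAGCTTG
The table holds 1 value per gene and none per transcript, so which transcripts carried the difference in implied length cannot be told from it, and the splice itself was not measured. The deposited counts are per RefSeq gene, and the GENCODE transcripts are shown only as annotation.

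**Figure D5:**
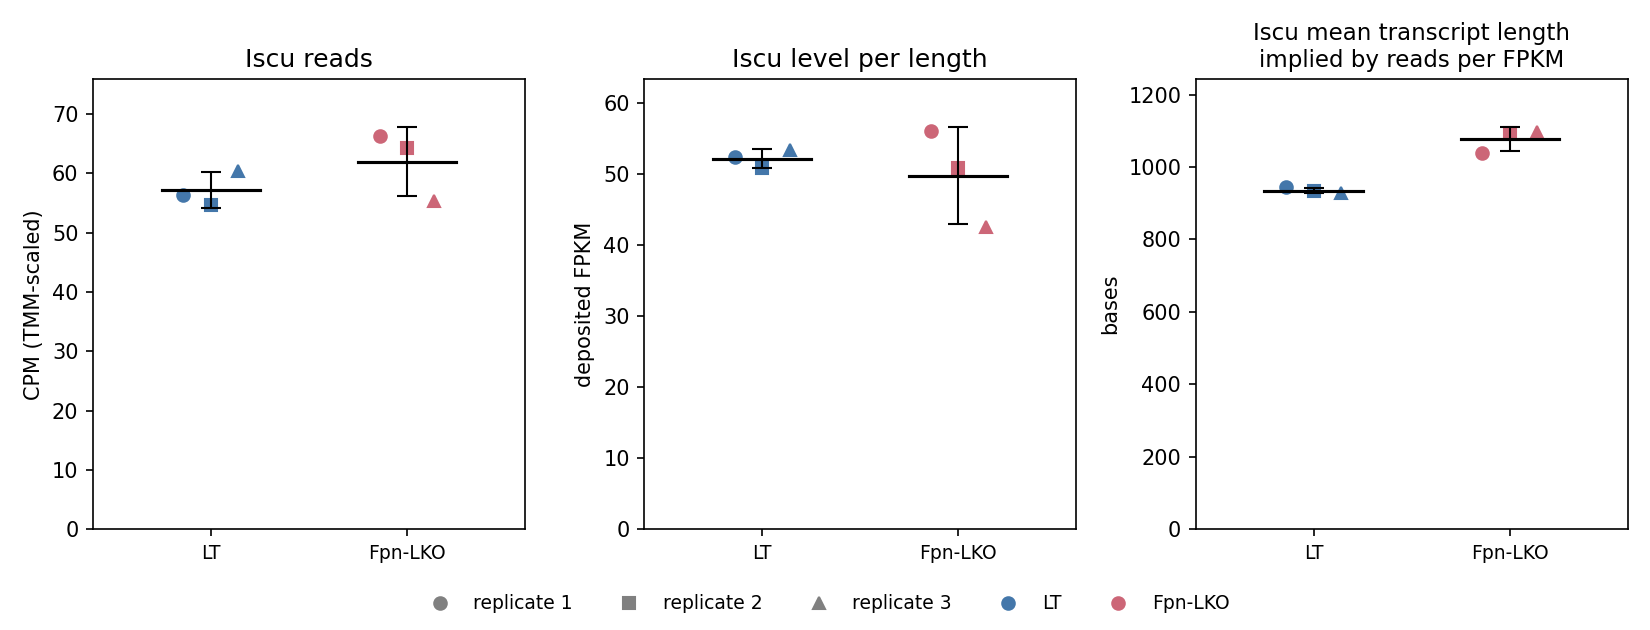
Iscu in 3 measures, each from 0 upward, with a point per mouse, the mean as a line and the SD as error bars. TMM-scaled CPM and deposited FPKM overlap between the genotypes (FPKM 50.7 to 53.3 in LT and 42.5 to 55.9 in Fpn-LKO), whereas the implied mean transcript length lies at 929 to 944 bases in LT and 1039 to 1097 bases in Fpn-LKO.

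Some reads of these genes may be shared with other genes. Within the longest transcript of Iscu, stretches of at least 100 bases with 90% identity or more occur in 374 other genes, the longest in the pseudogene Gm16437 (421 bases, 98.3% identity), which had 115 to 158 reads in LT and 122 to 195 in the libraries labelled Fpn-LKO, at most 6.5% of the Iscu reads of the same library. Isca1 shares 1914 bases at 99.0% identity with a gene named AK157302, and Slc25a37 shares 382 identical bases with Gm16867 (at most 280 reads), so their counts are uncertain to that extent. Nfs1 shares 258 identical bases with Gm28036 and Lyrm4 115 with Fars2, which had up to 1635 reads against 220 to 359 for Lyrm4 itself. No such stretch was found for Glrx5, Isca2 or Slc25a28. Lyrm4 also overlaps the pseudogene Tmed10-ps (at most 156 reads), and Slc25a37 overlaps the noncoding genes Gm27222, Gm31896 and Gm31748 (at most 54 reads). Whether the counting used strand is not stated.

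The genes that act around these 8 were described in the same fit. Of 15 further mitochondrial assembly factors, all were tested, 7 with a positive and 8 with a negative log2 fold change, median -0.029, and 0 passed the adjusted threshold in either direction. Their summed CPM, in which abundant genes weigh most, was 876 to 951 in LT and 844 to 854 under the Fpn-LKO label, without overlap. The same sum overlapped for the 8 members (227 to 242 in LT, 227 to 244 under the Fpn-LKO label). It also overlapped for the cytosolic assembly genes (221 to 262, 237 to 243) and the cluster-carrying proteins (3494 to 4155, 3721 to 4029) described below. No background was computed for such sums. Single genes did not stand out by count, with 1 of 15 at an unadjusted p under 0.05, against 4.8% of all genes, and 2 of 15 without overlap between the groups, against 10.6%. The gene with an unadjusted p under 0.05 was Abcb10, a transporter of the inner mitochondrial membrane known to stabilise mitoferrin-1 in red cell precursors. It had 29.3, 37.3 and 38.0 CPM in the LT livers, against 28.4, 29.8 and 23.7 CPM under the Fpn-LKO label, with overlap of LT replicate 1 (log2 fold change -0.35, SE 0.15, edgeR adjusted p = 0.982). Nubpl, which serves the clusters of respiratory complex I, had 11.2, 12.9 and 12.9 CPM in the LT livers, against 15.03, 14.4 and 14.6 CPM under the Fpn-LKO label, without overlap (log2 fold change 0.25, edgeR adjusted p = 0.982). Fdx1, a ferredoxin, and Bola3, which acts in late cluster transfer, had log2 fold changes of -0.28 and 0.19, each with overlapping groups.

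Cytosolic cluster assembly, which depends on the mitochondrial pathway, was represented by 11 genes, all tested. Of these, 7 had a positive and 4 a negative log2 fold change, with a median of 0.015 and a range from -0.12 to 0.13. In the quasi-likelihood test 0 of the 11 passed an adjusted p of 0.05, against 0.0232% of all genes. At an unadjusted p under 0.05 the count was also 0, against 4.8%. Groups did not overlap for 1 of the 11, Ciao2b, against 10.6%, so none of these counts stood out from the background. The 5 smallest p-values of the 11 genes belonged to Ciao1 (log2 fold change 0.11), Ciao2a (0.08), Nubp1 (-0.12), Ciao2b (-0.11) and Nubp2 (0.13), the scaffold and targeting factors of this pathway.

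Of 29 proteins that carry iron-sulfur clusters, 28 were tested and Mutyh, with at most 11 reads, was not. Their log2 fold changes were positive for 14 and negative for 14, with a median of 0.0048, and 0 passed the adjusted threshold. An unadjusted p under 0.05 was found for 1 of 28, against 4.8% of all genes, and groups without overlap for 3 of 28, against 10.6%, so neither count stood out from the background. The 1 gene was Xdh, the xanthine dehydrogenase of purine breakdown. It had 90.5, 103 and 81.2 CPM in the LT livers, against 155, 104 and 140 CPM under the Fpn-LKO label, and the lowest Fpn-LKO value exceeded the highest LT value by less than 1 CPM (log2 fold change 0.54, SE 0.17, edgeR adjusted p = 0.982). Cisd1, a protein of the outer mitochondrial membrane, and Sdhb, the cluster subunit of succinate dehydrogenase, were the other 2 without overlap (log2 fold changes 0.22 and 0.18, edgeR adjusted p = 0.982 each). Dpyd, which degrades pyrimidines, and Aco1, whose protein is an aconitase with a cluster and an iron regulatory protein without one, overlapped between the groups (log2 fold changes 0.40 and -0.18).

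The genes whose log2 CPM followed 3 of the members most closely over the 6 libraries were found among 12576 genes with a mean of at least 1 CPM. All of them share the depth and scaling of the same 6 libraries, and the values are given as a description. For Slc25a37 the closest were D630045J12Rik (Pearson's r 0.986), Mink1 (0.983) and Rin3 (0.973), and 21 genes had r above 0.95. For Slc25a28 they were Syne3 (0.982), Gfod2 (0.979) and LOC102636815 (0.976), among 25 above 0.95. For Iscu they were Marcksl1 (0.996), Stx7 (0.994) and Ppp4r1 (0.992), among 24.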

How the data were processed

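Per the submitters' processing notes, reads were handled with bcl2fastq 2.20.0, FastQC 0.11.7, HISAT2 2.1.0, Bowtie2 2.3.4.1 and StringTie 2.1.3b on mm10 (GRCm38). The authors deposited read counts per RefSeq gene, which StringTie derives from coverage, without normalization. FPKM, per transcript length and depth, and TPM, which has the same sum in each library, were deposited beside them. The labels describe an mRNA kit and the study's methods a total RNA kit with removal of ribosomal RNA; which was used is not settled here. A library was made from each liver sample, and p-values set a difference against the spread between these samples.

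Counts were tested as deposited in R 4.3.3 with edgeR 4.0.16 (quasi-likelihood, TMM scaling, Benjamini-Hochberg adjustment over all genes), in place of the exactTest of the study's methods, dropping any gene without reads in over 1 library, which kept 17274. Standard errors and 95% intervals come from this fit and cover the spread between mice. The fit was tested on simulated data. Alternatives were RLE and upper-quartile scaling, DESeq2 1.42.0, exactTest, filterByExpr, every gene with any read, limma 3.58.1 on log2(TPM + 1) or log2(TPM + 0.1) above a mean of 1 TPM and on log2(TPM + 1) unfiltered, the replicate number as a block, and leaving out each mouse. Ratios and reads per FPKM were compared by exact permutation tests. Copies were searched with BLAST 2.17.0.

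The members and gene lists were chosen with earlier results of these data known. The reads per FPKM, its alternatives, 3 of 4 ratios and the overlap under other scalings were chosen after the values were seen. The ratio of Glrx5 to Isca1 was left out after it had been computed, since the separate groups of both genes fix its direction. Named genes were the 8 members, Slc40a1, up to 5 genes a list with the smallest p, and the 3 genes most like Slc25a37, Slc25a28 and Iscu. Some genes that this rule or the marker lists include are not reported here by name. Other genes named were chosen for overlap, sequence identity or as markers. The summed CPM of markers of other cells, in LT and in the libraries labelled Fpn-LKO, was 277 to 350 and 239 to 530 (macrophages), 5.20 to 7.07 and 5.55 to 11.9 (neutrophils and monocytes), 1.02 to 2.10 and 0.750 to 1.77 (lymphocytes), 257 to 314 and 245 to 258 (endothelium), 373 to 435 and 395 to 441 (stellate cells), 11.9 to 83.6 and 19.8 to 28.6 (cholangiocytes), and 0.577 to 1.50 and 0 to 0.343 (pancreatic acinar cells). Ly6g, Mpo and 4 of 5 acinar markers had no read. Replicate pairs differed beyond counting error, with chi-square per degree of freedom from 65.8 to 321. No column was left unmatched to a sample. Human and protein data were not analysed here.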

Additional observations from a re-analysis of the deposited data

How the results depend on the processing

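None of the 8 genes passed an adjusted p of 0.05 in any of the 16 alternatives (smallest adjusted p 0.839, for Glrx5 with all genes of at least 1 read), and the count of members called was 0 throughout. Iscu, Glrx5, Isca1, Slc25a37 and Slc25a28 kept their direction in all 16. With 1 mouse left out, Nfs1 ranged from -0.0064 (without LT replicate 2) to 0.063, and Lyrm4 from -0.20 (without Fpn-LKO replicate 3; -0.053 without LT replicate 2) to 0.15. Isca2 turned to 0.0014, 0.0018 and 0.0014 with limma on log2(TPM + 1), log2(TPM + 0.1) and log2(TPM + 1) unfiltered. In these settings the median over all genes was 0.083, 0.097 and 0.024, against -0.0040 in the main fit. Slc40a1 turned to -0.0078 with upper-quartile scaling and ranged from -0.11 to 0.14 when a mouse was left out. The cause of these turns was not tested. The number of members whose groups did not overlap was 2 with TMM, 2 with RLE, 1 with upper-quartile scaling, 1 with total counts and 0 with TPM. On FPKM only Glrx5 stayed apart. The share of all genes without overlap was 10.6% with TMM and was not computed for the other scalings, so these counts have no background to be read against.

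Over all genes, the 4 calls became 72 with DESeq2 (49 higher, 23 lower), 63 with exactTest (44 higher, 19 lower), 7 with limma on log2(TPM + 1), 7 on log2(TPM + 0.1), 0 with the replicate block, and 0 to 6 when a mouse was left out. At an unadjusted p under 0.05 the split was 452 higher and 378 lower, against 441 and 131 with limma on log2(TPM + 1), where the median of all genes shifted to 0.083. The replicate numbers gave no clear sign of pairing the mice. Deviations of same-numbered mice correlated at 0.13, -0.0095 and 0.045, and not every sample correlated best with its own number. Deviations from the mean of only 3 mice are tied to each other, so these correlations cannot exclude a pairing. With the replicate block 850 genes had an unadjusted p under 0.05, and the mitoferrin ratio, whose difference is the same with the block by construction, had an exact sign-flip p = 0.25, the smallest that 3 pairs allow. When a mouse was left out, that difference ranged from 0.12 to 0.51, and that of Iscu reads per FPKM from 0.19 to 0.23. The alternative calibrations of the latter gave 0.20 and 0.21. Lyrm4 and Slc25a28 had the fewest reads of the 8, with 220 to 359 and 234 to 334 per library, and how much counting error adds to their intervals was not tested.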
